A study of Mus musculus with 18 samples.

Results

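Levels of the incretin and glucagon receptors Glp1r, Gipr and Gcgr and of the incretin-degrading peptidase gene Dpp4 were followed through mouse heart after infarction. They were taken by symbol from a deposited count table, where all 4 were found among 25230 symbols. The tissue came from male C57BL/6J mice in which the left anterior descending coronary artery had been tied off, sampled 3 days after ligation in 3 regions: the atria, the infarcted part of the left ventricle (LV) and its non-infarcted part. In each region 3 libraries came from mice given liraglutide, an acylated peptide agonist of the GLP-1 receptor, and 3 from mice given PBS, its vehicle, so that 18 libraries form 6 groups. All 6 groups come from ligated hearts and share 1 strain and sex; no sham-operated heart was analysed here, so no value below is a change from an uninjured heart. Neither the dose nor the schedule of liraglutide is given in the sources used here. The labels call the libraries of a group biological replicates, and p-values measure the spread between these libraries.

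The receptors belong to the secretin family of G protein-coupled receptors, which bind peptide hormones and signal mainly through Gs and cyclic AMP. GLP-1 and GIP are released by the gut after a meal and glucagon by pancreatic alpha cells; all reach the heart through the circulation, and in mouse heart GLP-1 receptor expression is best known from the atria. DPP4, a membrane-bound serine peptidase also known as CD26, removes the N-terminal dipeptide of GLP-1 and GIP and so inactivates them. Liraglutide is largely protected from that cleavage.

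Totals of the 18 libraries ran from 4280459 to 21853482 counts, so that 3 counts, the floor used here as the limit of detection in 1 library, equal 0.137 to 0.701 CPM (counts per 1000000 counts of the library's total). Region labels went with their markers: the 10 atrial cardiomyocyte markers summed to 40250 to 56320 CPM in atria, against 361 to 617 CPM in infarcted and 226 to 619 CPM in non-infarcted LV. The 8 ventricular markers summed to 530 to 2073 CPM in atria, against 13060 to 15370 CPM and 16620 to 19060 CPM in those LV regions. A pair of atrial libraries stood apart. Liraglutide replicate 3 had the highest atrial sum of ventricular markers, 2073 CPM, and PBS replicate 2 had 325 CPM of 5 adipocyte markers, against 0.958 to 15.0 CPM in the other atria. Atrial results are therefore also given without both. The 4 thymocyte markers summed to 4.09 to 17.0 CPM in PBS atria (median 5.11) and to 3.25 to 4.07 CPM in liraglutide atria. Their part in the atrial Dpp4 level was not tested.

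The promoters of 3 of the 4 genes were matched in RefSeq (GRCm38.p6), and 200 bases of each, from 250 to 51 bases before the annotated start, are shown because these genes were all higher in atria and can be compared for shared letters. Capitals mark matches, on either strand, to 1 of 6 short motifs. For heart transcription factors the search used the GATA-factor core, with the letters GATAA, the T-box core, with AGGTGT, and the NKX2-5 core, which reads TNAAGTG. The general promoter elements searched were the SP1 box, spelled GGGCGG, the cAMP response element core, which is TGACG, and the TATA box, with the letters TATAAA. The sequences are, on the plus strand for Glp1r at chr17:30901617-30901816 and Gcgr at chr11:120530477-120530676, and on the minus strand for Dpp4 at chr2:62412282-62412481:
Glp1r: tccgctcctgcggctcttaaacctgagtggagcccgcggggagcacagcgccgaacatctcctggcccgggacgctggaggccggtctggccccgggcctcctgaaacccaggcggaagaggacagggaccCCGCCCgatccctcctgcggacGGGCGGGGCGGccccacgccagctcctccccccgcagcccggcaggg
Gcgr: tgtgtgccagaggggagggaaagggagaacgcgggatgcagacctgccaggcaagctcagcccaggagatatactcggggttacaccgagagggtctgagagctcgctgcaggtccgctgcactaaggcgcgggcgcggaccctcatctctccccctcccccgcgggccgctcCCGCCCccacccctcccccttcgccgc
Dpp4: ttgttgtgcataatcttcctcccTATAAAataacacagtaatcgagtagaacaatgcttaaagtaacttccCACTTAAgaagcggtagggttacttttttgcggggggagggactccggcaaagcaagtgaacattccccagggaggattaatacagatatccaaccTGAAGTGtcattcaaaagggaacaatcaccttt

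The 3 windows had no motif in common. Glp1r and Gcgr were GC-rich, at 75.0% and 69.5% against a median of 51.5% over 32851 promoter windows of the same length, and held 3 and 1 SP1 boxes, of which 2 in Glp1r overlap; 24.6% of all windows hold one. Dpp4 was AT-rich (42.0% GC) and held 2 NKX2-5 cores and a TATA box, found in 8.36% and 9.14% of all windows. The GATA, T-box and cAMP motifs, present in 19.3%, 9.86% and 12.7% of all windows, were in none of the 3. A match is a description of letters and not a binding site. RefSeq's gene spans reach further than the starts used, from 120529185 for Gcgr and to 62412315 for Dpp4. The Gcgr window thus lies inside its gene span and the Dpp4 window partly so.

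Glp1r, the receptor that liraglutide binds, was detected in every atrial library and was at or under 1 count in every LV library. It lies on chromosome 17 at 30901817 to 30940791 (GRCm38, GENCODE M21) on the plus strand, with 13 exons in its coding transcript. In atria its counts were 23, 9 and 16 with liraglutide, against 19, 11 and 8 with PBS. These equal 1.66, 0.602 and 0.732 CPM with liraglutide, against 1.5, 0.584 and 1.28 CPM with PBS. The treatment groups overlapped, and each held at least 1 library near 0.6 CPM. Infarcted LV gave 1 count in 1 liraglutide library and 0 in the other 5, and non-infarcted LV gave 1 count in 1 PBS library and 0 in the other 5. Pooled, atria had 86 counts and the 12 LV libraries 2 counts among 132196217, which is 0.972 CPM in atria (95% Poisson interval 0.778 to 1.2) against 0.0151 CPM in LV (0.00183 to 0.0547). At the atrial rate the LV libraries would have held 128.5 counts, so a level like that of atria would have been detectable at this depth. The pooled rate ratio of atria over LV was 64.3 (exact 95% interval 17.3 to 539), and its width comes from the 2 LV counts. These intervals cover counting error only. In a bulk library, fewer cells of a type and less RNA per cell cannot be told apart.

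Gipr, the GIP receptor, was detected in all 3 regions, with means in the order atria, infarcted LV, non-infarcted LV. The gene lies on chromosome 7 at 19156061 to 19166127 on the minus strand. Its atrial level was 2.96, 2.88 and 2.97 CPM with liraglutide, against 5.04, 2.76 and 4.31 CPM with PBS. In infarcted LV it stood at 0.737, 0.626 and 1.10 CPM with liraglutide, against 1.10, 0.743 and 0.467 CPM with PBS. Every atrial library was thus above every infarcted LV library, and the treatments overlapped in both. Non-infarcted LV gave 0.607, 0.255 and 0.250 CPM with liraglutide, against 0.646, 0 and 0.360 CPM with PBS. These rest on 29 counts in 6 libraries, of which 3 were above the floor of 3 counts, against 45 counts and 5 libraries in infarcted LV.

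Gcgr, the glucagon receptor, which is best known from liver, was also highest in atria, but its LV means stood in the other order than those of Gipr, with libraries that overlapped. It is annotated on chromosome 11 at 120530699 to 120538986, plus strand. Atria had 1.88, 4.55 and 2.75 CPM with liraglutide, against 4.80, 3.87 and 2.87 CPM with PBS, from 306 counts in all. In infarcted LV the counts were 1, 5 and 0 with liraglutide, against 1, 3 and 0 with PBS. Non-infarcted LV had 2, 10 and 1 counts with liraglutide, against 10, 5 and 1 with PBS. All atrial libraries were above all LV libraries, while 1 infarcted and 3 non-infarcted LV libraries exceeded the floor. The region mean was 0.153 ± 0.176 CPM in infarcted and 0.342 ± 0.252 CPM in non-infarcted LV (SD, n = 6 each), and the libraries of both regions overlapped.

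Dpp4 was the only one of the 4 above the floor in all 18 libraries, and its regions ran in the order atria, infarcted LV, non-infarcted LV. It lies on chromosome 2 at 62330073 to 62412231 on the minus strand, next to Gcg, the glucagon and GLP-1 precursor gene, and its closest relative Fap. Atria had 7.87, 12.3 and 12.9 CPM with liraglutide, against 12.8, 13.5 and 11.02 CPM with PBS. Infarcted LV stood at 4.52, 4.03 and 4.51 CPM with liraglutide, against 4.88, 3.53 and 3.74 CPM with PBS. The regions did not overlap, although atrial liraglutide replicate 1 lay below the other atria. Non-infarcted LV had the lowest values, 2.35, 1.78 and 2.50 CPM with liraglutide, against 2.35, 1.69 and 1.08 CPM with PBS. The exon of an antisense gene, Gm13561, overlaps an exon of Dpp4, and whether the counting used strand is not given in the sources used here.

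**Figure D1:**
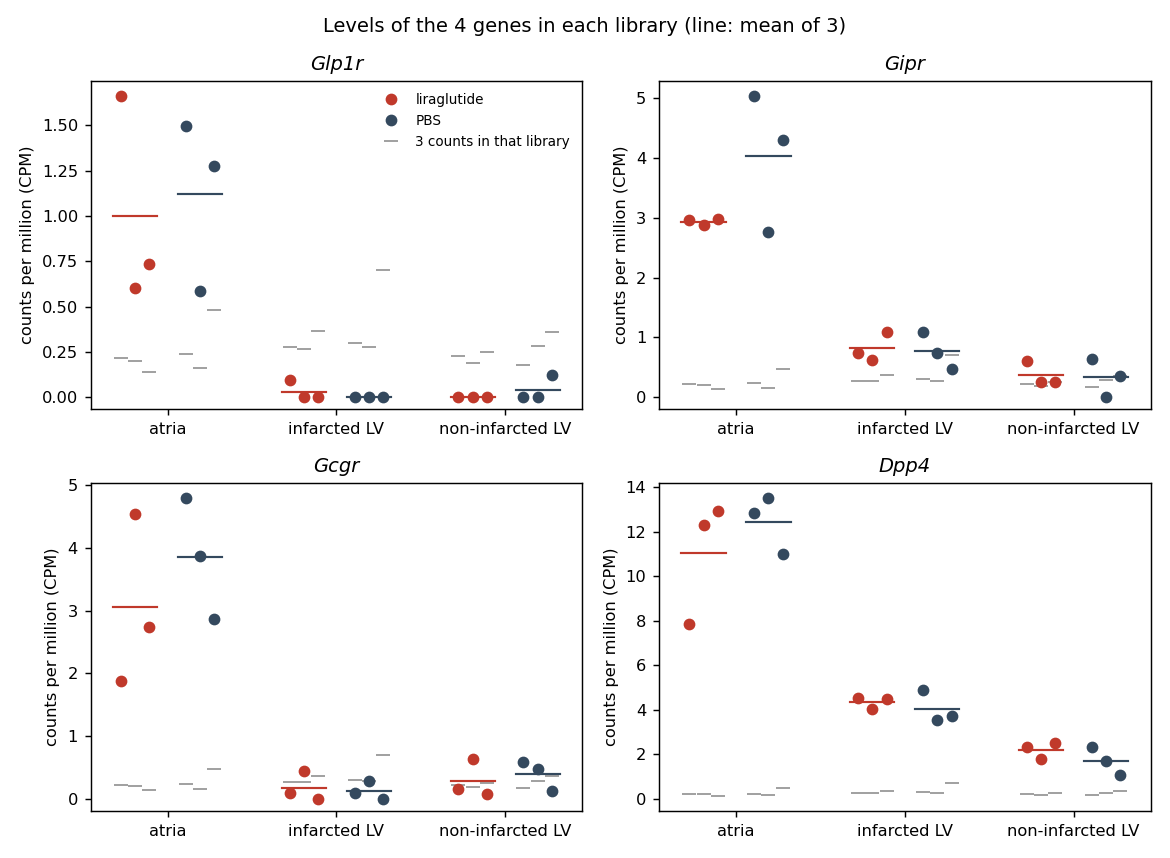
Each point is 1 library (y axis, CPM of the library total), by region and treatment, with the mean of 3 as a line and 3 counts in that library as a grey dash. Atrial libraries lie above every LV library for all 4 genes, Glp1r is at or near 0 in LV, and liraglutide and PBS points overlap in each region.

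Levels in CPM favour long transcripts, so the members were also set against each other per kilobase of their coding transcript. In atria the means of CPM per kilobase were 0.182 ± 0.0822 for Glp1r, 1.22 for Gipr, 1.77 for Gcgr and 2.23 for Dpp4 (n = 6 libraries). With these GENCODE lengths, Glp1r was the lowest in 6 of 6 atrial libraries, and Dpp4 the highest in 5 of 6. Glp1r depends on the gene model: the GENCODE transcript has 5811 bases, of which 1480 lie within the shorter span RefSeq gives, and over those its level would be 0.715 ± 0.323. That is still under the means of both sister receptors. Within single libraries the order changed, as Glp1r would not be the lowest in liraglutide replicate 1 over those bases. Of the 3 receptors' summed level per kilobase, Glp1r made up 5.41% in atria, Gipr 37.4% and Gcgr 57.2%. With RefSeq spans as lengths these shares were 18.3%, 32.3% and 49.4%, in the same order.

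All 4 genes were higher in atria than in non-infarcted LV, beyond the spread between libraries. With treatment as a term, edgeR's quasi-likelihood test over 13871 genes (Benjamini-Hochberg adjustment) gave a log2 fold change of 3.10 for Gipr (SE 0.353, adjusted p = 1.43e-06). Gcgr differed by 3.13 (SE 0.365, adjusted p = 1.84e-06 in edgeR) and Dpp4 by 2.48 (SE 0.168, adjusted p = 3.85e-09 in edgeR). For Glp1r the edgeR adjusted p was 9.29e-06, and its size is better read from the pooled counts, a ratio of 74.7 (13.1 to 2986), since the fitted value rests on a single LV count. Such calls were common between these tissues: 32.8% of all tested genes were higher in atria and 31.4% lower at the same threshold, and 23.2% had all 6 atrial libraries above all 6 of non-infarcted LV. The 4 members met both criteria. Glp1r, Gipr and Gcgr passed the low-count filter because of their atrial counts, so their number is not evidence of its own. A two-sided exact permutation test of mean CPM gave p = 0.00216 for each gene, the smallest that 6 against 6 libraries allows; 24 such tests were run.

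Against infarcted LV the atria were also higher for all 4. Gcgr had the largest of the 3 fitted differences, 4.20 (SE 0.442, adjusted p = 6.64e-07 in edgeR), followed by Gipr with 2.06 (SE 0.242, adjusted p = 2.17e-06 in edgeR). Dpp4 differed by 1.48 (SE 0.135, adjusted p = 1.24e-07 in edgeR). Glp1r passed with an adjusted p of 2.02e-05 in edgeR and a pooled count ratio of 53.8 (9.4 to 2149). The background was 31.9% of genes called higher in atria and 30.6% called lower, and 19.1% with every atrial library higher, a criterion that all 4 genes met. Here too Glp1r, Gipr and Gcgr passed the low-count filter because of their atrial counts, so their number is not evidence of its own. Without the pair of atrial libraries that stood apart, the log2 fold changes over non-infarcted LV were 3.27 for Gipr, 3.22 for Gcgr and 2.44 for Dpp4. Over infarcted LV they were 2.21, 4.27 and 1.42 for these genes, and all 4 members again passed in both comparisons.

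**Figure D2:**
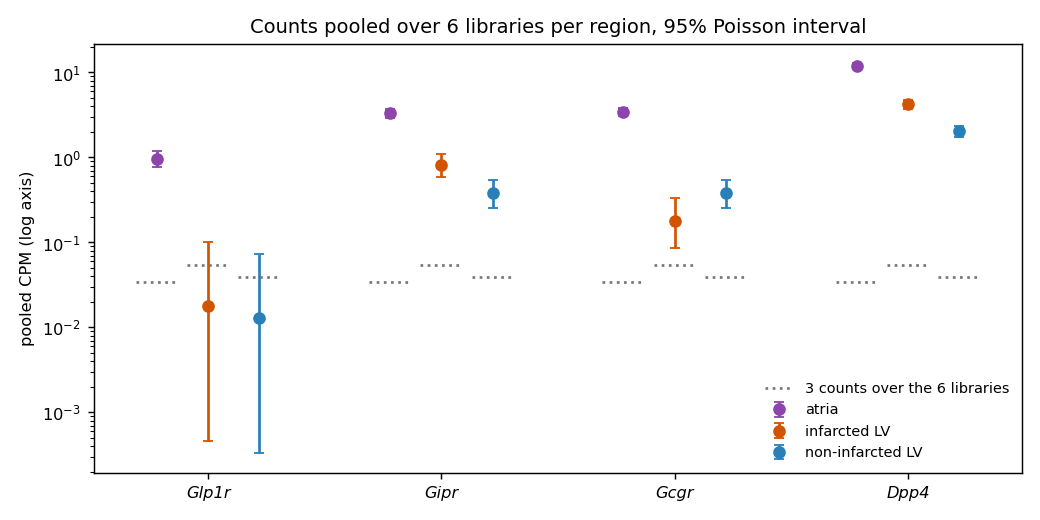
Counts pooled over the 6 libraries of each region, as CPM on a log axis with 95% Poisson intervals, which cover counting error only; dotted lines mark 3 counts over the 6 libraries. Atria are highest for every gene, the Glp1r intervals in both LV regions reach below the dotted lines, and the LV intervals overlap for Gcgr but not for Gipr.

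Between the LV regions, Dpp4 was higher in infarcted tissue, 4.20 ± 0.521 CPM, than in non-infarcted tissue, 1.96 ± 0.544 CPM (SD, n = 6 each). The log2 fold change was 1.03 (SE 0.172, 95% interval 0.67 to 1.39, adjusted p = 2.76e-05 in edgeR), and all 6 infarcted libraries lay above all 6 non-infarcted ones. It was 1.13 in PBS libraries alone and 0.96 in liraglutide libraries alone, past the threshold in both. Of 13325 genes tested, 32.4% were called higher in infarcted LV and 31.9% lower, and 23.2% had every infarcted library higher. The other members were too low for the filter of that fit. Gipr averaged 0.794 ± 0.254 CPM in infarcted and 0.353 ± 0.243 CPM in non-infarcted LV (SD, n = 6 each; two-sided exact permutation p = 0.0152), with 4 of 6 infarcted libraries above every non-infarcted one. Fitted with no filter, Gipr had a log2 fold change of 1.04 (SE 0.412, adjusted p = 0.0338 in edgeR), which did not pass in either treatment alone (adjusted p = 0.183 in PBS and 0.123 in liraglutide libraries, edgeR). It was also lost without infarcted PBS replicate 1 or liraglutide replicate 3, or non-infarcted liraglutide replicate 2 or 3 or PBS replicate 2 (adjusted p of 0.0635 to 0.0955 in edgeR). Gcgr did not pass in the unpaired tests (log2 fold change -1.05, 95% interval -2.28 to 0.19, adjusted p = 0.166 in edgeR with no filter, exact permutation p = 0.158), although without infarcted liraglutide replicate 2 it did (-1.74, adjusted p = 0.0396 in edgeR). Between same-numbered libraries, Gcgr was lower in infarcted LV in 6 of 6 pairs and Gipr higher in 6 of 6.

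Marker lists moved with these regions, and their part in the member differences was not tested. The 10 sinoatrial and pacemaker markers summed to 241 to 349 CPM in atria, against 182 to 243 CPM in infarcted and 127 to 159 CPM in non-infarcted LV. Of these genes, edgeR called 7 of 10 higher and 2 lower in atria over non-infarcted LV, beside 32.8% and 31.4% of all genes. Over infarcted LV 6 of 9 tested were higher and 3 lower, beside 31.9% and 30.6%. The 7 epicardial and mesothelial markers in the table summed to 164 to 335 CPM in atria, against 30.04 to 40.9 CPM and 8.34 to 12.4 CPM, and 5 endocardial markers to 261 to 379 CPM, against 130 to 143 CPM and 98.1 to 117 CPM. Not all marker lists shared the order of Dpp4. The 9 adventitial fibroblast markers (the Pi16 type) summed to 294 to 434 CPM in atria, below the 804 to 998 CPM of infarcted and 650 to 712 CPM of non-infarcted LV. Over non-infarcted LV this sum was carried by some of its genes: 5 of 9 were called lower in atria by edgeR, beside 31.4% of all genes. Ly6c1 (-1.49) and Limch1 (-1.46) led them, while Cd55 (0.32), Efhd1 (0.27), Sema3c (0.14) and Pi16 itself (0.07) did not pass. The 7 general fibroblast markers summed to 2425 to 4869 CPM in atria, against 4299 to 5358 CPM in infarcted and 1741 to 2087 CPM in non-infarcted LV. Neutrophil markers, 5 genes, had the order of Dpp4 in their medians, with 74.7 to 669 CPM in atria (median 281). In infarcted LV they summed to 34.9 to 131 CPM (77.8) and in non-infarcted LV to 22.5 to 41.1 CPM (36.9). By their medians, the sinoatrial, epicardial, endocardial, macrophage and monocyte, autonomic neuron and Schwann cell, and thymocyte lists had this order too. The macrophage and monocyte medians of atria and infarcted LV lay close, at 109 and 107 CPM, against 58.5 CPM in non-infarcted LV. The 6 macrophage and monocyte markers summed to 46.4 to 176 CPM in atria, against 102 to 135 CPM in infarcted and 55.3 to 66.4 CPM in non-infarcted LV. The 7 endothelial markers summed to 1136 to 1746 CPM in atria, against 2336 to 2940 CPM in infarcted and 1478 to 1586 CPM in non-infarcted LV. All 7 were called higher in infarcted over non-infarcted LV (median log2 fold change 0.94), beside 32.4% of all genes. Conventional dendritic cell markers, 7 genes, summed to 16.7 to 21.4 CPM in atria, against 25.4 to 34.5 CPM in infarcted and 18.2 to 20.7 CPM in non-infarcted LV. Of 5 tested in atria over infarcted LV, 3 were called higher and 2 lower, beside 31.9% and 30.6% of all genes. The 8 T and NK cell markers found in the table summed to 1.4 to 3.6 CPM in atria, against 2.7 to 4.56 CPM and 1.2 to 2.3 CPM in those LV regions. Pancreatic islet and gut endocrine markers were at or near 0 in every region, with Ins1, Sst and Pyy at 0 throughout.

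No liraglutide difference passed the threshold in the 6 tests that could be fitted, of all 4 genes in atria and of Dpp4 in both LV regions. Glp1r, Gipr and Gcgr were too low in LV for such a fit. The treatment groups overlapped for all 4 in all 3 regions. In atria the log2 fold change of Glp1r was -0.02 (SE 0.544, 95% interval -1.25 to 1.21, adjusted p = 0.999 in edgeR), an interval that leaves room for a doubling in either direction. Gipr had -0.34 (-0.98 to 0.30, adjusted p = 0.891 in edgeR) and Gcgr -0.25 (-1.04 to 0.55, adjusted p = 0.959 in edgeR). Dpp4 had the narrowest interval, -0.08 (-0.50 to 0.34, adjusted p = 0.975 in edgeR). In this comparison edgeR called 1 of 13530 genes, or 0.00739%, and 14.9% had groups that did not overlap; at an unadjusted p under 0.05 it counted 929 genes, and DESeq2 called 118. Without the pair of atrial libraries that stood apart, the values were -0.18 for Glp1r, -0.55 for Gipr, -0.16 for Gcgr and -0.11 for Dpp4, none past the threshold.

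In infarcted LV the Dpp4 level was 4.35 ± 0.281 CPM with liraglutide and 4.05 ± 0.730 CPM with PBS (SD, n = 3 each), a log2 fold change of 0.10 (-0.37 to 0.56, adjusted p = 0.987 in edgeR). In non-infarcted LV it was 2.21 ± 0.379 CPM with liraglutide and 1.71 ± 0.636 CPM with PBS, a change of 0.26 (-0.37 to 0.89, adjusted p = 0.999 in edgeR). Across all genes edgeR called 0% in either LV region, with 681 and 561 genes at an unadjusted p under 0.05, while DESeq2 called 1 and 2 genes; 9.69% of genes in infarcted and 8.96% in non-infarcted LV had groups that did not overlap. Gipr and Gcgr were too low in LV for a fitted value. Gipr averaged 0.820 ± 0.246 CPM with liraglutide and 0.769 ± 0.315 CPM with PBS in infarcted LV (SD, n = 3 each), and the exact permutation p was 1.0. For Gcgr it was 0.9 in both LV regions, and for Gipr 1.0 in non-infarcted LV; 3 against 3 libraries cannot give less than 0.1.

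Whether the liraglutide effect differed between regions was tested over all 18 libraries. The Dpp4 difference of effects was -0.34 (95% interval -1.01 to 0.32) for atria minus non-infarcted LV, -0.18 (-0.80 to 0.45) for atria minus infarcted LV and -0.17 (-0.90 to 0.56) for infarcted minus non-infarcted LV. None of the 3 passed, and edgeR called 0% of 13920 genes in each contrast; at an unadjusted p under 0.05 it counted 750, 903 and 174 genes, and DESeq2 called 58, 30 and 0. For Glp1r, Gipr and Gcgr no difference of effects is given, because their LV counts were too low for a treatment fit in LV.

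**Figure D3:**
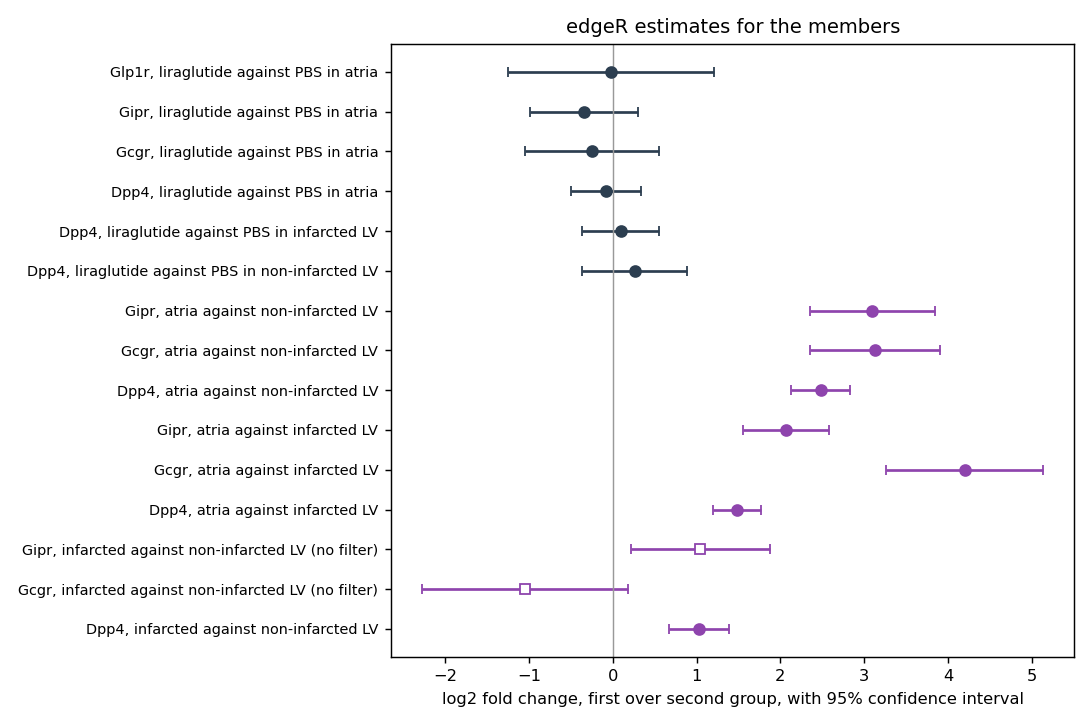
Log2 fold changes of the members from edgeR, first over second group as each row names them, with 95% confidence intervals; open squares come from the fit with no low-count filter, and Glp1r is left out between regions, where counts give its ratio. Intervals of the liraglutide rows all include 0, and those of atria over either LV region all lie above 1.

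Genes around the receptors and the peptidase were counted by list, each list whole. Ligand genes were near the limit of detection. Gcg had 3 counts, all in infarcted LV, Gip had 0 counts in 18 libraries, and the prohormone convertases Pcsk1 and Pcsk2, which cut proglucagon into its hormones, had 50 and 13 counts; none of the 4 was testable.

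Of the other 12 secretin-family receptors, 5 had enough counts to be tested over non-infarcted LV, and 0 were higher and 3 lower in atria (median log2 fold change -0.65, against 0.01 for all genes). Of all genes, 32.8% were higher and 31.4% lower there. In either direction, 3 had an unadjusted p under 0.05 in edgeR and DESeq2 called 3. Vipr1, a receptor of vasoactive intestinal peptide, had 0.385 ± 0.315 CPM in atria and 2.16 ± 0.606 CPM in non-infarcted LV, a change of -2.53 (SE 0.420, adjusted p = 7.89e-05 in edgeR). Calcrl, the calcitonin receptor-like receptor of adrenomedullin and CGRP signalling, fell by 1.08, and the parathyroid hormone receptor Pth1r fell by 0.65 on the log2 scale. Against infarcted LV 6 were tested, with Crhr2, the urocortin receptor, higher in atria (0.32) and 4 lower, among them Vipr1 (-4.02) and Vipr2 (-2.47). The median was -1.06, against 0.02 for all genes, of which 31.9% were higher and 30.6% lower. In infarcted over non-infarcted LV 4 of 6 rose, led by Vipr1 (1.53) and Vipr2 (1.41), and 2 fell, beside 32.4% and 31.9% of all genes.

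Receptor coupling and desensitization genes, 14 in all and all tested, rose in 7 cases and fell in 3 in atria over non-infarcted LV (median 0.23), where 32.8% of all genes were higher and 31.4% lower. Grk3, a kinase that phosphorylates active receptors, had 103 ± 5.28 CPM in atria and 22.1 ± 0.704 CPM in non-infarcted LV (log2 fold change 2.16, SE 0.0679, adjusted p = 1.09e-12 in edgeR). Arrb1, a beta-arrestin that ends G protein coupling, rose by 1.37, Arrb2 by 0.91 and Grk5 by 0.79. Gnas, the Gs alpha subunit through which these receptors raise cyclic AMP, stood at 1017 ± 58.9 CPM in atria and 1039 ± 38.5 CPM in non-infarcted LV and did not pass (-0.10, adjusted p = 0.263 in edgeR). Against infarcted LV 5 rose and 4 fell in atria, beside 31.9% and 30.6% of all genes, with Grk3 at 2.52 and Ramp3, a partner protein of Calcrl, at -2.53. In infarcted over non-infarcted LV 8 rose and 1 fell, against 32.4% and 31.9% of all genes.

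Of 12 genes of the DPP4 family and other peptidases, 10 were tested in each region comparison. In atria over non-infarcted LV 3 rose and 4 fell, with a median of -0.03, shares near the 32.8% and 31.4% of all genes. Ece1, the endothelin-converting enzyme, rose by 1.36, and Anpep, aminopeptidase N, by 0.70, whereas Fap, the fibroblast activation protein that neighbours Dpp4, fell by 1.75 (adjusted p = 8.09e-06 in edgeR). Fap stood at 1.02 ± 0.452 CPM in atria and 3.48 ± 0.624 CPM in non-infarcted LV, the opposite order to Dpp4. Over infarcted LV, atria had 3 higher and 5 lower genes, beside 31.9% and 30.6% of all genes, with Fap at -2.62. In infarcted over non-infarcted LV 4 rose, Anpep (1.40), Dpp7 (1.17), Ece1 (0.97) and Fap (0.91), and 2 fell, so that Fap and Dpp4 moved the same way there. Among all genes 32.4% rose and 31.9% fell in that comparison.

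**Figure D4:**
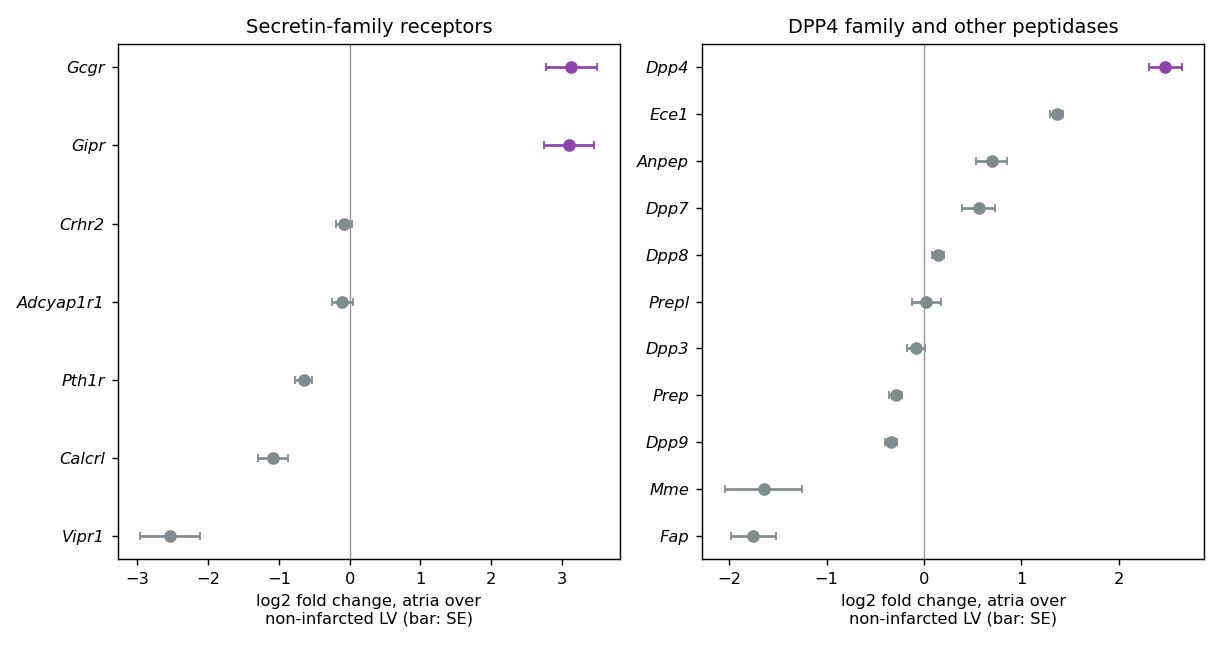
Log2 fold changes in atria over non-infarcted LV with standard errors, for the tested secretin-family receptors (left) and the DPP4 family and other peptidases (right); purple marks Gipr, Gcgr and Dpp4, and Glp1r is left out because its fitted value rests on a single LV count. Gcgr and Gipr lie at 3.13 and 3.10, while the 5 other receptors lie below 0, of which 3 were called lower. Dpp4 lies at 2.48 while its neighbour Fap lies at -1.75.

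Genes listed as DPP4 binding partners, whose binding in mouse was not examined, were higher in infarcted LV. Of the list of 7, 6 of the 6 tested rose over non-infarcted LV (median 1.12, against -0.03 for all genes, of which 32.4% rose). They were led by Cxcr4 (2.22), the CXCL12 receptor, Ada (1.69), the adenosine deaminase that DPP4 anchors in humans, and Fn1 (1.18), fibronectin. In atria over non-infarcted LV 4 of 7 rose and 1, Cav1, fell (-0.41), against 32.8% and 31.4% of all genes. Over infarcted LV 0 of 6 rose and 3 fell in atria, beside 31.9% and 30.6% of all genes. Of these 6, 4 had an unadjusted p under 0.05 in edgeR, and DESeq2 called 4, in either direction. Among 18 genes listed as DPP4 substrates or their receptors, whose cleavage in mouse was not examined, 10 were tested between the LV regions. Of these, 9 rose in infarcted LV (median 1.62), against the same 32.4% of all genes. Cxcl10, a T-cell chemokine, rose by 3.60 and Csf3, the granulocyte growth factor, by 3.35. In atria over non-infarcted LV 8 of 11 rose and 3 fell, beside 32.8% and 31.4% of all genes. Csf3 rose by 4.60 there and Npy1r, a receptor of the substrate neuropeptide Y, by 2.94, while Cxcl12 fell by 1.43. Over infarcted LV 4 rose and 4 fell in atria, where 31.9% of all genes were higher and 30.6% lower.

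With liraglutide, no gene of these 6 lists passed edgeR's adjusted threshold in any region. In atria the list of substrates had 4 of 11 tested genes at an unadjusted p under 0.05, and DESeq2 called 1 of its genes, beside 6.87% of all 13530 genes at that unadjusted level. These 4 genes had negative log2 fold changes, Csf2 -2.23, Csf3 -1.13, Cxcl10 -1.10 and Ccl2 -0.66. The 5 neutrophil markers were also all negative in atria (median -1.31, 0 at an unadjusted p under 0.05 in edgeR and 0 called by DESeq2), and their part in the substrate values was not tested. The secretin-family list had 1 of 4 genes at that unadjusted level, the coupling list 1 of 14, and the peptidases and binding partners 0, with 0 called by DESeq2 in these 4 lists. In infarcted LV the count was 1, among the substrates, beside 5.24% of all genes. In non-infarcted LV it was 1 secretin-family, 2 coupling and 3 substrate genes, beside 4.34% of all genes. DESeq2 called 0 genes of these lists in either region.

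The genes most like each member were found by Pearson's r of log2(CPM + 0.5) over all 18 libraries. They describe mainly the contrast between regions, which the libraries share. Slc17a9, a vesicular nucleotide transporter, was closest to Gipr (r = 0.978), Comp, an extracellular matrix protein, to Gcgr (0.973) and Ikbip to Dpp4 (0.985), followed by the matrix Gla protein gene Mgp (0.98). Mybphl, a sarcomere protein of atrial muscle, was among the 5 closest to Gcgr (0.968), with 759 CPM in atria, against 0.416 CPM in infarcted and 4.27 CPM in non-infarcted LV. For Glp1r the closest were Actn3 and Plcb2 (0.961 each), Gdf7, Baiap2l2 and Kcnq1, a potassium channel of the heart (0.955). At a pseudocount of 0.1, 0 of those 5 were among the closest again, and 1 of 5 was for Gipr, 2 of 5 for Gcgr, without Comp, and 4 of 5 for Dpp4.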

How the data were processed

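Polyadenylated RNA was sequenced from 18 libraries. The authors deposited 1 table of raw counts per gene symbol. The submitters' processing notes name the aligner STAR 2.7.9a, DESeq2 and the build mm10; how reads were counted, on which annotation and whether by strand, is not given in the sources used here. Library totals ran from 4280459 to 21853482 counts, and within each group no 2 libraries were alike within sampling noise.

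The members and gene lists were chosen with earlier results of these data known. Named genes are the 4 members, up to 4 genes with the smallest p of each list and comparison, Gnas, and the 5 most like each member. Gnas, and Crhr2 in atria over infarcted LV, were chosen after their values were seen. Each comparison was fitted in R 4.3.3 with edgeR 4.0.16 (filterByExpr with a minimum count of 10, TMM factors, robust quasi-likelihood F tests, Benjamini-Hochberg adjustment over all tested genes, threshold 0.05). Liraglutide comparisons used 6 libraries, region comparisons 12 with treatment as a term, and differences of effects all 18. The fits were tested on simulated data. Only genes above the median level were changed there, so genes as low as the receptors were not covered. Members too low for that filter were compared by exact permutation of CPM. Poisson intervals and rate ratios are exact, at 95%. Locations come from GENCODE M21 (GRCm38), and promoters from RefSeq (GRCm38.p6). Same-numbered libraries did not pair by the rule used, a correlation above 0.1 in every pair, so no block is in the reported fits. Between regions 8 of 18 same-numbered pairs were above 0.1, against 0 of 36 others. The region tests thus treat libraries of different regions as independent, although the labels do not say whether same-numbered ones share an animal. Alternatives were RLE factors, no filter, DESeq2 1.42.0, all 18 libraries, a replicate block, each treatment alone, the atria without the pair that stood apart, and each library left out.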

Additional observations from a re-analysis of the deposited data

How the results depend on the processing

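The calls of all 4 members in atria over either LV region, and of Dpp4 in infarcted over non-infarcted LV, kept their direction and passed under every alternative that could fit them; with 1 treatment alone, Glp1r was too low for the filter and has no value. Leaving out 1 library at a time, Dpp4 ranged from 2.39 to 2.57, from 1.42 to 1.57 and from 0.94 to 1.13 on the log2 scale in these 3 comparisons. No member passed in a liraglutide comparison or contrast under any alternative that could be fitted; most of these estimates lie near 0 and their sign is not stable. The cause of the changes below was not tested.

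The number of genes called in atria, 1 in the reported fit, was 3 with no filter, 118 with DESeq2, 0 with the replicate block, 94 with all 18 libraries and 80 without the atrial pair that stood apart, and 0 to 105 with 1 library left out (105 without liraglutide replicate 3). In infarcted LV 0 became 35 with no filter, 1 with DESeq2 and 0 to 3 with a library left out. In non-infarcted LV 0 became 5, 2 and 0 to 2. For the contrast of atria minus non-infarcted LV it was 1 with no filter, 58 with DESeq2, 1 with the replicate block and 0 to 118 with a library left out. For atria minus infarcted LV it was 30 with DESeq2 and 0 to 117.

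With a library left out, the atrial liraglutide effect was -0.61 to 0.35 for Glp1r and -0.201 to 0.0789 for Dpp4, and the infarcted LV effect of Dpp4 -0.0422 to 0.299. The Dpp4 contrast of infarcted minus non-infarcted LV was -0.506 to 0.0309. The mean CPM difference with liraglutide was -0.0997 to 0.215 for Gipr and -0.0800 to 0.144 for Gcgr in infarcted LV, and -0.133 to 0.191 and -0.275 to 0.00172 in non-infarcted LV. Gipr in infarcted over non-infarcted LV, with no filter, was 0.80 to 1.39, 1.04 in PBS libraries alone and 1.06 in liraglutide libraries alone; Gcgr was -1.74 to -0.65.

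The replicate numbers did not meet the rule for pairing, a correlation above 0.1 in every same-numbered pair. Between regions, 8 of 18 same-numbered pairs correlated above 0.1 (-0.0349 to 0.14) and 0 of 36 others. In 25 of 36 comparisons of a library with another region, it correlated best with its own number, among 3 libraries of its treatment there. Between the LV regions 5 of 6 same-numbered pairs were above 0.1 (0.0765 to 0.139). With the replicate block, the Gcgr difference of -0.189 CPM, infarcted minus non-infarcted LV, was lower in 6 of 6 pairs. The exact sign-flip p was 0.0312, the smallest that 6 pairs allow, against an exact permutation p of 0.158 without the block. Below the floor of 3 counts, depth sets the limit: Glp1r changes within LV, and changes of Gipr or Gcgr there by less than their intervals, were not detectable.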

Other observations

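The values here were picked after they were seen and carry no test. Gipr made up 45 of 55 Gipr and Gcgr counts in infarcted LV (81.8%, exact binomial 95% interval 69.1 to 90.9), 29 of 58 in non-infarcted LV (interval 36.6 to 63.4%) and 292 of 598 in atria (48.8%, 44.8 to 52.9). These intervals cover counting error only; by library the share was 58.3 to 100% in infarcted LV, 0 to 80% in non-infarcted LV (median 63.7%) and 38.7 to 61.2% in atria (median 51.6%). Gipr counts exceeded those of Gcgr in 6 of 6 infarcted LV libraries, against 4 of 6 in each of the other regions. Dpp6, a DPP4-family protein without peptidase activity that modulates potassium channels, had 71 counts in atria, 1 in infarcted LV and 3 in non-infarcted LV. Sctr, the secretin receptor, had 23 counts in all, of which 16 came from 1 atrial library.

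In the 6 atrial libraries alone, Aif1, a macrophage gene, had the pattern most like that of Glp1r (r = 0.99), over 86 Glp1r counts. It was the highest of the named genes among 13920, so its r over 6 libraries is not evidence of a link. Aif1 averaged 1.58 CPM in atria, 1.80 CPM in infarcted LV and 0.793 CPM in non-infarcted LV.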
